A study of Homo sapiens with 3 samples.

Results

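Total RNA of KMS11 cells carrying the hairpin shMMSET#2 was compared with that of KMS11 cells carrying shLuc, a control hairpin named for luciferase, a gene that human cells lack. KMS11 is an established human myeloma line with the t(4;14) translocation, so the control cells carry it too, and every result concerns this 1 line. Both groups received lentivirus and were collected 48 h after infection, 24 h of which were spent in fresh medium, per the labels, which describe no selection of infected cells. Each group is 1 Affymetrix array, so these are 2 of the 3 arrays of the series; the shMMSET#4 array was not used. The comparison covers the 41091 probe sets with 1 gene symbol among 54675 in the value table (75.2%), which stand for 19775 genes. Of these, 12740 were tested, since a probe set of theirs exceeded the median signal of shLuc, of shMMSET#2 or of both, and 7035 were too dim. With 1 array a side there is no replicate and no p-value. Genes are described by the log2 ratio of shMMSET#2 over shLuc signal and by whether the several probe sets of a gene gave the same answer. Probe sets of 1 gene share the same RNA and are not replicates.

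MMSET, whose current symbol is NSD2, is a histone methyltransferase that places the H3K36 dimethyl mark on chromatin. In myeloma with this translocation, NSD2 comes under the control of the immunoglobulin heavy chain locus and is made in excess, and the mark then spreads over much of the genome. Short hairpin RNAs are processed into small interfering RNAs that lead to the destruction of a matching messenger RNA, and lentivirus delivers them into the cell's DNA.

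Signals are linear MAS5 intensities, with a 2% trimmed mean of 500.1 on both arrays. Signals under 43.8, the 40th percentile of both arrays pooled, were raised to that floor before ratios were taken. Where 1 of both signals sat at the floor, the ratio is only a bound, shown by the words "at least". The floor held 37.4% of probe sets on the shLuc array and 42.6% on the shMMSET#2 array, and the median signals were 77.6 and 62.2. The arrays also differed in a measure of RNA integrity: the 3' probe set of ACTB exceeded its 5' probe set by 1.70 on the log2 scale on the shLuc array and by 1.14 on the shMMSET#2 array, while the same differences for GAPDH were 0.04 and 0.10. The part of these differences in the results was not tested. Plasma cell markers were present on both arrays, all 10 above the floor, with JCHAIN, the joining chain of secreted antibodies, at 55012 and 40928 and the maturation receptor TNFRSF17 at 18258 and 11771. CD38 was dim, at 94.4 and 129. The 12 T and NK cell markers summed to 1248 and 412, with 4 of them at the floor on both arrays, and the 9 myeloid markers with a probe set summed to 390 and 330, again with 4 at the floor on both. EPCAM, an epithelial adhesion molecule, had 8099 of the 8985 summed signal of 9 fibroblast and epithelial markers on the shLuc array and 4391 of 5222 on the shMMSET#2 array.

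NSD2 was lower with shMMSET#2 on all 6 of its probe sets, but by very different amounts. Here and below, signals are given as shLuc to shMMSET#2. On 3 probe sets the signals went from 2165 to 335, from 1239 to 227 and from 1492 to 389, which is 6.45-fold, 5.45-fold and 3.83-fold lower. On the other 3 they went from 5617 to 3408, from 10300 to 7032 and from 1027 to 709, or 1.65-fold, 1.46-fold and 1.45-fold lower. The median log2 ratio was -1.33 (SD 0.99 over 6 probe sets). The brightest probe set, which stands for the gene elsewhere in this text, gave a log2 ratio of only -0.55, so NSD2 is not among the genes counted as 2-fold lower. Which NSD2 transcripts each probe set reads was not analysed here.

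**Figure D1:**
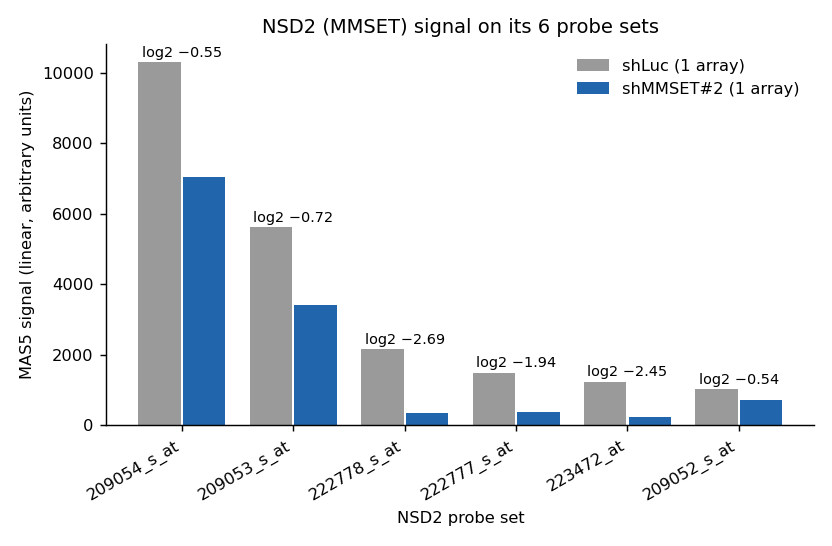
Bars give the linear MAS5 signal of each NSD2 probe set (horizontal axis) on the shLuc array and the shMMSET#2 array, with the log2 ratio above each pair and no error bar since each is 1 array. All 6 pairs are lower with shMMSET#2, from 1.45-fold to 6.45-fold.

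Across the 12740 tested genes the median log2 ratio was -0.05 (SD 0.75 over genes). At 2-fold, 1374 genes (10.8%) were lower and 719 (5.64%) were higher, so that 65.6% of genes past 2-fold were lower. At 4-fold, 144 were lower and 55 higher. Of the lower genes, 397 (28.9%) were bounds because the shMMSET#2 signal lay at the floor, and 126 higher genes (17.5%) were bounds because the shLuc signal did. The excess of lower genes lay mainly among dim genes. In the dimmest decile of tested genes 24.5% were 2-fold lower and 7.22% higher, whereas in the brightest decile the shares were 5.65% and 3.53%. A gene this dim could be tested through the 1 array on which it was brighter, so the filter itself favours large ratios there. With a filter on the mean signal of both arrays, 1132 genes were lower and 649 higher. The split also turned with the scaling. With both arrays scaled to the same median signal, the median log2 ratio over tested genes went from -0.05 to 0.27 and the share of lower genes among those past 2-fold from 65.6% to 31.0%; with quantile normalization these were 0.03 and 51.6%. Ratios below are therefore best read against the all-gene median of the same scaling.

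**Figure D2:**
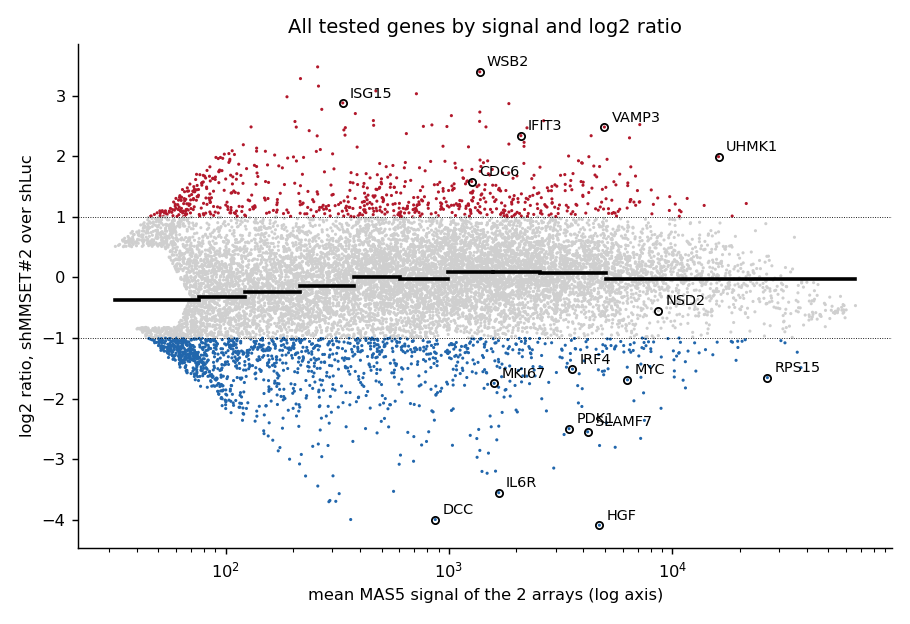
Each point is 1 of 12740 tested genes, by the mean MAS5 signal of its brightest probe set on both arrays (horizontal, log axis) and its log2 ratio (vertical); blue and red mark genes at least 2-fold lower and higher, and black bars give the median ratio of each decile of signal. The bars run from -0.37 among the dimmest genes to 0.09 in the seventh decile.

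Agreement between probe sets was the only internal check of a single ratio, and it cannot show whether the ratio would recur on other arrays. In the 6333 genes with 2 or more measured probe sets, the 2 brightest differed by a median of 1.25-fold, and in 1 gene of 20 by more than 2.74-fold (95th percentile). Agreement followed signal. With genes ranked by the dimmer of both probe sets, Pearson's r between their log2 ratios was 0.35 in the dimmest group of 2111 genes, 0.64 in the middle group and 0.81 in the brightest; these are descriptions across genes, whose probe sets share both RNA samples. Where the brightest probe set was past 2-fold, the next one had the same sign in 284 of 374 genes (75.9%), 222 of 248 (89.5%) and 203 of 213 (95.3%), from dimmest to brightest. Of the 1374 genes that were 2-fold lower, 523 had 2 or more probe sets, and in 327 of these every other probe set was at least 1.5-fold lower as well. Those 327 are 5.16% of the 6333 genes that could meet this rule. Among 312 genes that were 2-fold higher with 2 or more probe sets, 149 met the rule, 2.35% of the 6333. The remaining 851 lower and 407 higher genes rest on 1 probe set each.

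**Figure D3:**
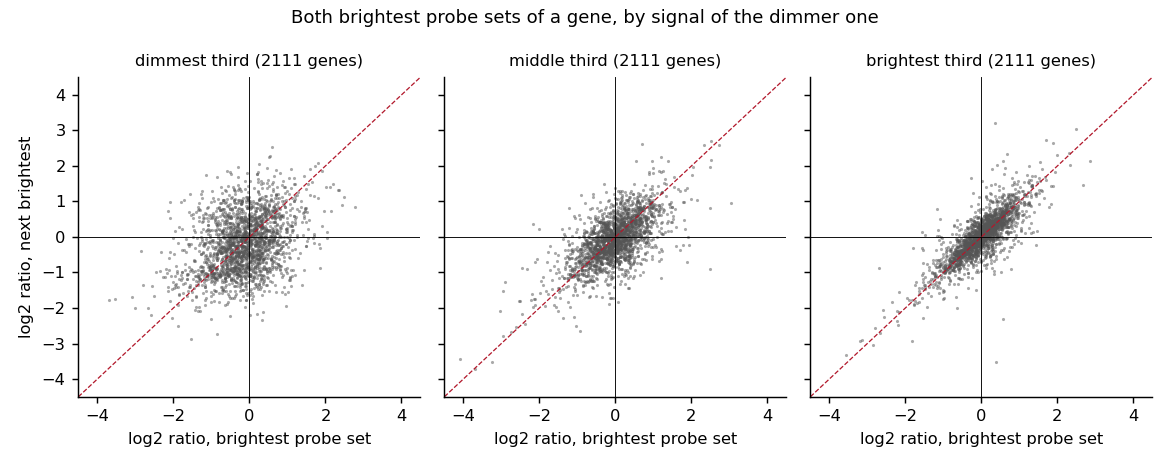
Each point is a gene, by the log2 ratio (shMMSET#2 over shLuc) of its brightest probe set (horizontal) and of its next brightest (vertical), in 3 panels of 2111 genes ordered by the signal of the dimmer probe set; the dashed line marks equality. The cloud narrows towards the line from the dimmest panel (r = 0.35) to the brightest (r = 0.81).

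The lowest genes with agreeing probe sets held a growth factor, a cytokine receptor and several proteins of the cell surface and matrix. HGF, the ligand of the MET receptor and a factor that myeloma cells can secrete, had a signal of 8905 with shLuc and 522 with shMMSET#2 on its brightest probe set (17-fold lower). Its other 4 probe sets were lower too, from 5.14-fold to 10.8-fold. IL6R, the receptor for interleukin 6, a growth and survival factor of plasma cells, went from 3078 to 262 on one probe set and from 1609 to 162 on the other. Both probe sets thus read it about equally low, at 11.7-fold and 9.94-fold.

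Among matrix and membrane genes, PXDN, a peroxidase that cross-links basement membrane collagen, was 9.18-fold lower (2914 to 317). SULF2, which trims sulphate groups from heparan sulphate outside the cell, was 8.87-fold lower (5291 to 597). CAV1, the coat protein of caveolae, was 6.99-fold lower (9707 to 1389). The second probe set of each gave a like log2 ratio, namely -2.92 for PXDN, -2.89 for SULF2 and -2.57 for CAV1.

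GLCCI1, a gene known for its induction by glucocorticoids, was among the brightest of the group, with 4 probe sets between -2.70 and -2.18 and a signal that went from 12452 to 1973. MAN1A1, a Golgi mannosidase that trims N-glycans, went from 12549 to 2444. DACH1, a transcriptional co-regulator, had 3 probe sets between -2.96 and -2.55. The others of the 15 lowest were PLPP1 (-2.61), SOWAHC (-2.38), FRMD6 (-2.21), BEST3 (-3.04), GBP2 (-1.88), SLC2A12 (-2.55) and STC2, a secreted stress-response glycoprotein that was at least 5.98-fold lower. In every one the dim side was the shMMSET#2 array on all measured probe sets, which is what the ranking asked for.

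Among the highest genes with agreeing probe sets, GXYLT1, a xylosyltransferase that extends the sugar chains on Notch receptors, went from 360 to 2388 (6.64-fold higher). VAMP3, a vesicle fusion protein of recycling endosomes, went from 1506 to 8420, and its 3 probe sets lay between 2.35 and 3.04 on the log2 scale. IFIT3, an antiviral protein induced by interferon, went from 692 to 3504 and, on the other probe set, from 163 to 986. All of these ratios were past 5-fold on every probe set.

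FMR1, the RNA-binding protein of fragile X syndrome, went from 2165 to 10696, with both probe sets near 5-fold (2.30 and 2.36). UHMK1, a kinase that phosphorylates splicing factors, reached 25742 from 6464, the brightest signal in this set, and its 4 probe sets lay between 1.88 and 2.55. UBE2V2, a partner of the ubiquitin-conjugating enzyme UBE2N, went from 2118 to 12179. SPRED1, an inhibitor of RAS signalling, went from 249 to 1428. The rest of the 15 highest were REEP5 (2.87), NEXMIF (2.49), SPTSSA (1.88), CCDC28B (1.72), SCOC (1.67), ATP2A3 (1.54), GNAI3 (1506 to 4270) and SUSD4, which was at least 3.11-fold higher.

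**Figure D4:**
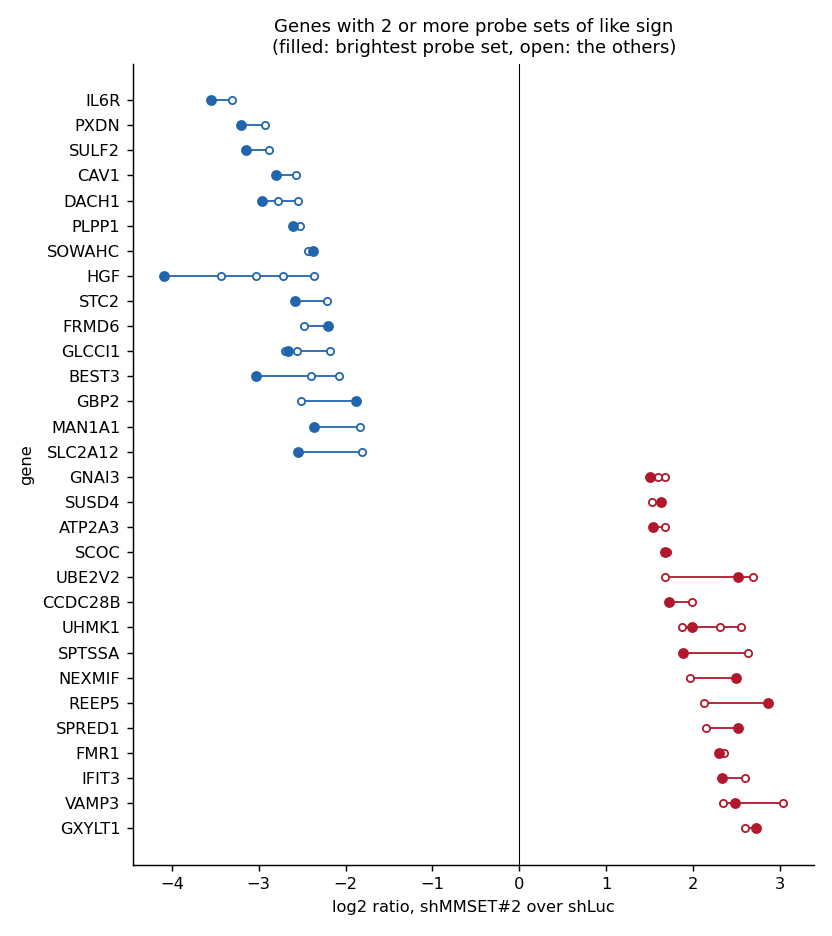
Log2 ratios (shMMSET#2 over shLuc, horizontal) of every measured probe set of the 15 lowest and 15 highest genes with 2 or more probe sets of like sign; filled points are the brightest probe set, open points the others and lines their span. HGF spans the widest range among the lower genes, from -4.09 to -2.36, and no probe set crosses 0 since genes were chosen for like sign.

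Genes read by 1 probe set reached similar sizes, without that check. DCC, the netrin receptor, went from 1634 to 102 (16-fold lower). CDH1, the epithelial cadherin, had a signal of 595 with shLuc and a log2 ratio of -3.57. PFKFB4, a glycolysis regulator, went from 1071 to 126. TGFBR2, the type II receptor for TGF-beta, was at least 9.71-fold lower, from 426 to a signal under the floor. LHX8 (-2.93) and PCDH18 (-2.92) were also at the low end, as were GRB14 (at least 12.8-fold lower) and ZC2HC1B (at least 10.9-fold lower). TRAT1, one of the T cell markers, went from 548 to 56.6, and so held much of the marker sum given above, while CD3D was at 91.3 and under the floor.

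At the high end, WSB2, a substrate-recognition protein of a ubiquitin ligase, went from 238 to 2508 (10.5-fold higher). ASAP2, a GTPase-activating protein for ARF proteins, went from 757 to 4550, and GPS1, a subunit of the COP9 signalosome, from 52.4 to 468. FAXDC2, NUDT14 and SLC27A5 were at least 11.1-fold, 9.74-fold and 7.90-fold higher, with the shLuc signal under the floor. The other members, DDX60, ISG15, IFITM1 and IFIT1, are all interferon-stimulated genes and are described with that list.

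In 68 genes the measured probe sets were past 2-fold in both directions. BMP2K, a kinase, is the widest case: its brightest probe sets went from 1398 to 300 and from 1317 to 257, while a dim one went from under the floor to 117, at least 2.68-fold higher. IDS, a lysosomal sulphatase, had 10 probe sets between -1.45 and 1.77, and both extremes were bounds on dim probe sets. REXO2, NUP58, MAPK9, APBB2, TFB1M and TMEM165 were also past 2-fold both ways. Unlike in BMP2K, the brightest probe set was the higher one in NUP58 (444 to 2484) and was higher in TFB1M (457 to 1322). The signals of their lower probe sets are not given here. No direction is given for any of these 8 genes.

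The next results describe 38 gene lists by how many tested members were at least 1.5-fold lower or higher, set against 23.1% of all tested genes lower and 16.5% higher at that size. With both arrays scaled to the same median, those all-gene shares were 13.9% lower and 31.2% higher, which is the background for member counts given at that scaling. A list is given a direction only where its median log2 ratio was at least 1.25-fold from 0, which 16 lists met. The range after each median is that over the other settings tried.

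Plasma cell surface and identity genes had a median of -0.38 (range -0.44 to 0.00097), and 11 of 29 were lower and 4 higher. Beside HGF and IL6R, SLAMF7, a surface receptor and the target of a myeloma antibody, went from 7133 to 1218, with 3 probe sets between -2.55 and -1.77. SDC1, the syndecan that serves as the standard plasma cell marker, went from 5844 to 1694 on its brightest probe set (-1.79), but a second probe set gave -0.32. FCRL5 went from 186 to 68.9 and SEL1L3 from 428 to 138. On the other side CCR10, a chemokine receptor of plasma cells, went from 280 to 982, and the dim genes FCRLA (50.6 to 102) and CCND1 (49.7 to 92.6) were also higher. FGFR3, the other gene brought under immunoglobulin control by this translocation, went from 34952 to 24596 (-0.51), below 1.5-fold on both of its probe sets. The 10 plasma cell markers summed to 133598 with shLuc and 77932 with shMMSET#2. JCHAIN alone made 55012 and 40928 of these sums. In a bulk culture, fewer cells of a kind and less RNA per cell cannot be told apart.

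Transcription factors of plasma cells and the B lineage were lower as a list, with a median of -0.63 (range -0.72 to -0.31). Of 34 tested, 17 were lower and 3 higher, and 29 lay below 0; with both arrays at the same median 13 were lower and 3 higher. IRF4, on which myeloma cells depend, went from 5291 to 1853, and its 2 probe sets gave -1.79 and -1.51. PRDM1, which drives plasma cell differentiation, went from 5403 to 2362, with all 3 probe sets between -1.19 and -0.78. MAF, a factor activated in several forms of myeloma, went from 15208 to 5213 and was lower on all 6 probe sets.

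MYC, the growth regulator, went from 9616 to 2979 on its only measured probe set (3.23-fold lower). MEF2C went from 1500 to 452 (3 probe sets, -1.73 to -0.94) and BACH2, a repressor of plasma cell differentiation, from 625 to 198. XBP1, which expands the secretory apparatus, went from 16087 to 8577, and POU2AF1, a B cell co-activator, from 18545 to 7821. TCF3, the E-protein E2A, was lower on its brightest probe set (7288 to 3342), but its 11 probe sets ran from -1.19 to 0.79. The higher members were SPIB (289 to 718), ID3 (850 to 1487) and RUNX3 (2861 to 4801).

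Genes of interleukin 6 and JAK-STAT signalling had no common direction (median -0.21, 7 of 33 lower and 4 higher). IL6R and WSB2 were its extremes. IL6ST, the signalling chain that IL6R shares with related receptors, went from 23312 to 19652 (-0.25), and STAT3, the main transcription factor downstream, from 5274 to 4006 (-0.40). SOCS3, a feedback inhibitor, read 1353 and 1347. JAK1 went from 5283 to 3256 (-0.70), and PIM2 and PIM3, survival kinases of the same family, differed in direction, from 5030 to 2905 and from 1903 to 5193.

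Hypoxia response and glycolysis genes had a median of -0.46 (range -0.50 to -0.14), with 17 of 38 lower, 13 of them past 2-fold, and 5 higher. PDK1, which keeps pyruvate out of the mitochondrion, went from 5857 to 1037 and had 3 probe sets between -2.50 and -1.67. NDRG1, a widely used hypoxia marker, went from 8241 to 1204. ADM, the vasoactive peptide adrenomedullin, went from 4165 to 1039.

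Several genes of glucose uptake and glycolysis were among the lower members. The glucose transporter SLC2A1 went from 505 to 182, the hexokinase HK2 from 1223 to 436, GPI from 3136 to 1421, ALDOC from 705 to 246 and lactate dehydrogenase LDHA from 32492 to 19087. The higher members included EGLN1, an oxygen sensor that marks HIF for destruction (1171 to 3047, with 3 probe sets from 0.16 to 1.38), and the enolase ENO2 (266 to 576). With both arrays at the same median, 13 members were lower and 7 higher.

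Targets of ATF4, the factor that raises amino acid uptake and synthesis under stress, had a median of -0.75 (range -0.79 to -0.43), and 17 of 28 were lower and 2 higher; with both arrays at the same median these were 9 and 3. ATF4 itself went from 28464 to 13943 on its only measured probe set. Among amino acid transporters, SLC1A5 went from 795 to 298, SLC7A5 from 8532 to 4611 and SLC7A11, the cystine carrier, from 1626 to 814 with all 3 probe sets lower. Asparagine synthetase, ASNS, went from 6287 to 3872. ALDH1L2, a mitochondrial folate enzyme, went from 1159 to 339 and VLDLR from 229 to 46.8. DDIT3, the stress factor CHOP, did not share the direction, at 923 and 1078, and CEBPB (2103 to 3861) and PCK2 (209 to 360) were higher.

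The promoters of this list were searched for the core of the CEBP-ATF response element, TGATGNAA, on both strands from 250 bases before to 50 after the RefSeq start (GRCh38.p14). It occurred in 6 of the 14 lower members with a promoter window (42.9%), in 1 of the 9 other members, and in 2.96% of 10305 tested genes. The windows below show it in a transporter, a glutathione-degrading enzyme and a stress factor that were all lower, with the match in capitals and on the gene's strand. The ATF3 ratio rests on its brightest probe set (2141 to 1169), while another of its 3 was higher (0.34).
SLC1A5, chr19:46784879-46784936, minus strand, match 97 to 90 bases before the start: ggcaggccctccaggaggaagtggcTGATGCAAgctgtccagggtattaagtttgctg
CHAC1, chr15:40953237-40953294, plus strand, match 209 to 202 bases before the start: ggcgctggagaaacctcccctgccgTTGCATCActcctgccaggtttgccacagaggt
ATF3, chr1:212565191-212565248, plus strand, match 191 to 184 bases before the start: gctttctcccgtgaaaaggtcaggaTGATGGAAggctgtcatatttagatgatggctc

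Cytosolic ribosomal proteins, the brightest list, lay below 0 in 52 of 53 members, with a median of -0.58 and a narrow spread (SD 0.31 over genes). At 1.5-fold, 26 were lower and 1 higher. RPS15 went from 40444 to 12848, RPL31 from 50888 to 21620, RPL35A from 43367 to 20512 and RPS6 from 61702 to 35105, each lower on all its probe sets. RPS21 was the exception, going from 27267 to 43165. The size of this result rested on the scaling: with quantile normalization, which evens out the brightest signals, the median was -0.12 and 6 members were lower, against 19.3% of all tested genes at that scaling. With both arrays at the same median it was -0.27, again with 6 of 53 lower. The highest signal of any probe set was 77117 on the shLuc array and 55495 on the shMMSET#2 array.

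Noncoding and snoRNA host transcripts, several of which belong, like ribosomal protein genes, to the terminal oligopyrimidine class, had a median of -0.67 (range -0.68 to -0.35), with 11 of 19 lower and 2 higher. SNHG32 went from 11738 to 3131, DANCR from 10063 to 4094 and ZFAS1 from 12729 to 5119, the last on 4 probe sets that were all lower. The nuclear transcript MALAT1 went from 47863 to 36647 (-0.39), and none of its 12 probe sets was above 0. NORAD, which binds Pumilio proteins, went from 14739 to 23576.

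Among translation initiation factors (median 0.12, 8 of 39 lower and 6 higher), EIF4EBP1, a repressor of cap-dependent translation, went from 1087 to 257, EIF4B from 8939 to 3900 and EIF3L from 27147 to 12174. EIF5A2 was higher, from a dim 62.8 (2.48 on the log2 scale). Ribosome biogenesis genes had a median of -0.06, with 5 of 45 lower and 5 higher.

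Adhesion molecules had a median of -0.57 (range -0.57 to 0.06), which turned to 0.06 with both arrays at the same median, against an all-gene median of 0.27 there. It was -0.21 both with no filter and with the floor at the 60th percentile. Without _x_at and _s_at probe sets it was -0.23, and with quantile normalization -0.31. All of these lie nearer 0 than the 1.25-fold asked of a direction. Of 31 members, 15 were lower and 2 higher. Beside CDH1, the integrin ITGA8 went from 2415 to 333 (3 probe sets, -3.05 to -0.88) and CD58, the ligand of the T cell receptor CD2, from 3540 to 1049 with 3 probe sets between -1.79 and -1.71. ICAM1 went from 2717 to 1270 and the homing integrin ITGA4 from 4101 to 2672, both lower on all probe sets. ITGAL, the alpha chain of LFA-1, was higher (298 to 720), as was ITGA6 (334 to 612).

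Semaphorins, plexins and other axon guidance genes, which also steer migration of cells outside the nervous system, had a median of -0.76 (range -0.97 to -0.14), with 16 of 28 lower and 4 higher. These genes were dim (median signal 227), and with the floor at the 60th percentile the median was -0.14. SEMA3C, a secreted ligand, went from 1039 to 89.8 and on its other probe set was also lower (-1.74). Among brighter members ROBO1, the receptor of SLIT proteins, went from 5364 to 2747 and SEMA4A from 672 to 268. SEMA7A was higher, from 200 to 503.

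Notch pathway genes had a median of -0.78 (range -0.81 to -0.31), with 13 of 23 lower and 2 higher; with both arrays at the same median these were 7 and 5. The ligand JAG1 went from 274 to 122 on its brightest probe set, with -1.20 and -1.16 on both. The receptor NOTCH2 read 5294 and 4797, and RBPJ, the DNA-binding partner, 2895 and 3030. Of the target genes HEY1 went from 1937 to 1089 and NRARP from 206 to 89.0. Another list member, HES6, went from 912 to 393. HES1, the best known target, was on the other side (493 to 864, with both probe sets higher).

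Interferon-stimulated genes had a median of 0.72 (range 0.62 to 1.03), and 23 of 39 were higher and 5 lower. DDX60, an antiviral helicase, went from 99.5 to 841, ISG15, a ubiquitin-like protein, from 79.9 to 589 and IFI44 from 68.7 to 470. IFIT1, which binds viral RNA, went from 131 to 787, IFITM1 from 101 to 660 and HERC5, the ligase that attaches ISG15, from 683 to 3786. RSAD2, the antiviral enzyme viperin, was at least 4.57-fold higher. The members with the largest ratios thus started from dim shLuc signals, apart from IFIT3 and HERC5.

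Not all members shared the direction. SAMD9L went from 4299 to 1293 and SAMD9 from 2734 to 1537, both growth-restraining antiviral proteins, with every probe set lower. GBP1, a GTPase that gamma interferon induces strongly, went from 902 to 456 (3 probe sets, -1.04 to -0.54). Its relative GBP2, named above among the lowest genes, is not in this list, so the median and counts leave it out. GBP2 went from 246 to 66.7 (-1.88) and was lower on its other probe set too (-2.52, a bound). CXCL10, an interferon-induced chemokine counted with the NF-kB list, went from 1468 to 579.

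The interferon-stimulated response element, searched as GAAANNGAAA on both strands, lay in the promoter window of 14 of 19 higher members (73.7%) and of 8 of 13 other members (61.5%), against 3.92% of tested genes. The element was thus common both in higher members and in the others. The windows of the 3 members named first above hold the following matches, with the first of each in capitals. The ISG15 window holds another that overlaps it.
DDX60, chr4:168318806-168318865, minus strand, match 88 to 79 bases before the start: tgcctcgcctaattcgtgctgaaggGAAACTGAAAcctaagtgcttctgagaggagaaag
ISG15, chr1:1013359-1013418, plus strand, match 113 to 104 bases before the start: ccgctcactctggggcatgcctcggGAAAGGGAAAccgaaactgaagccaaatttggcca
IFI44, chr1:78649746-78649805, plus strand, match 60 to 51 bases before the start: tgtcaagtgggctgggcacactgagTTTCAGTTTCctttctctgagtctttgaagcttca

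Antigen presentation genes had a median of 0.48 (range 0.29 to 0.80), with 14 of 28 higher and 1 lower, and the highest ratios were those of class II genes. HLA-DRA went from 7013 to 14874, HLA-DQB1 from 890 to 2466 with 5 probe sets between 0.96 and 1.54, and HLA-DPB1 from 399 to 1126. The class I gene HLA-B read 30333 and 30892, and B2M, the light chain of class I, went from 67146 to 49214 (-0.45). CIITA, the master regulator of class II, read 557 and 575. HLA-DOB, a modulator of peptide loading, was the lower member (188 to 67.9). HLA genes are similar in sequence, so their probe sets may read one another's transcripts.

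Proteasome genes had a median of 0.39 (range 0.39 to 0.70), with 11 of 36 higher and 2 lower. PSMB10 (662 to 3046) and PSMB8 (838 to 2404), which replace catalytic subunits in the immunoproteasome, were among the highest. PSMB5, the constitutive subunit that bortezomib inhibits, went from 1700 to 4932. The assembly factor PSMG2 was lower (11124 to 6991).

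Cytosolic heat shock chaperones had a median of 0.59 (range 0.55 to 0.87), with 11 of 21 higher and 1 lower. HSPH1, a nucleotide exchange factor for HSP70, went from 1305 to 3299 and had 3 probe sets between 1.34 and 1.80. HSP90AA1, the inducible HSP90, went from 18397 to 34034 and was higher on all 4 probe sets. Its co-chaperones STIP1 (965 to 2103) and FKBP4 (1116 to 2412) were higher by similar amounts, while the mitochondrial chaperone HSPD1 was at -0.07 and DNAJA4 was lower (250 to 164). The endoplasmic reticulum counterpart HSPA5 lay on the other side, from 24800 to 11922 on its brightest probe set with a second at -1.48, in a list with a median of -0.19 and 7 of 41 lower and 4 higher.

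The heat shock element was searched as GAANNTTCNNGAA and TTCNNGAANNTTC, which are the same element on opposite strands. It was found in 4 of 9 higher members with a promoter window, in 1 of 8 others and in 0.543% of tested genes. Windows of a co-chaperone and both cytosolic HSP90 genes are given, with the first match in capitals. The CHORDC1 window holds another that overlaps it.
CHORDC1, chr11:90223072-90223134, minus strand, match 60 to 48 bases before the start: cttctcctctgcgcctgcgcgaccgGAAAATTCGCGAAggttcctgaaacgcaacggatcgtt
HSP90AA1, chr14:102087095-102087157, minus strand, match 88 to 76 bases before the start: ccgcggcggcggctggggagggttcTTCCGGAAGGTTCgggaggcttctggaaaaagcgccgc
HSP90AB1, chr6:44247753-44247815, plus strand, match 165 to 153 bases before the start: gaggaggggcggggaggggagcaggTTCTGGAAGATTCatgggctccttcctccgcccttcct

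DNA replication and G1/S genes had a median of 0.61 (range 0.59 to 0.93), with 27 of 51 higher and 2 lower. CDC6, which loads the replicative helicase, went from 632 to 1894 with probe sets at 1.31 and 1.58. The helicase subunits MCM2 and MCM5 went from 2055 to 5904 and from 1534 to 4428. CHAF1B, a histone chaperone of replicating DNA, went from 60.4 to 215, and UNG, which removes uracil from DNA, from 343 to 1538.

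The lower members were CCNE2, a cyclin of the G1/S transition, which went from 6408 to 1463 with both probe sets lower, and TYMS, which makes thymidylate. TYMS went from 25182 to 11995 on its brightest probe set, but its 3 probe sets ran from -1.07 to 0.96. Mitosis and kinetochore genes had no common direction (median -0.01, 4 of 51 lower and 5 higher), although they are bright (median signal 6201). MKI67, the proliferation antigen, was the lowest of them, from 2455 to 731 with 4 probe sets between -1.93 and -1.36, while MAD2L1, a spindle checkpoint protein, went from 8469 to 19303. Double-strand break and Fanconi repair genes had a median of 0.28, with 11 of 37 higher and 3 lower, among them RAD54L (294 to 722) and BRIP1 (634 to 1207).

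The E2F site, searched as TTTCGCGC and TTTGGCGC on both strands, was found in 9 of 23 higher replication genes with a promoter window (39.1%), in 4 of 21 others (19.0%) and in 2.42% of tested genes. Windows of an epigenetic regulator of replicating DNA, a helicase subunit and a polymerase subunit follow, with the first match in capitals. The MCM6 window holds another that overlaps it. The MCM6 ratio (4374 to 8263) rests on its brightest probe set, since the other gave -0.10.
UHRF1, chr19:4909959-4910016, plus strand, match 160 to 153 bases before the start: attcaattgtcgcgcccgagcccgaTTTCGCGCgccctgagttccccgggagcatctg
MCM6, chr2:135876563-135876620, minus strand, match 152 to 145 bases before the start: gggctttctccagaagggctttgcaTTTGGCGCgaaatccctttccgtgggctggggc
POLA2, chr11:65261884-65261941, plus strand, match 53 to 46 bases before the start: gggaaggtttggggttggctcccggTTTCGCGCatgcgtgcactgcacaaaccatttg

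Both lists of genes for mitochondrial proteins were higher by their medians, and mitochondrial genes outside these lists were not summarised. Mitochondrial ribosomal proteins had a median of 0.41 (range 0.35 to 0.73), with 22 of 64 higher and 0 lower, in contrast to their cytosolic counterparts at -0.58. MRPL28 went from 702 to 2021, MRPL17 from 298 to 838 and MRPL24 from 923 to 2482. Oxidative phosphorylation subunits had a median of 0.40 (range 0.27 to 0.72), with 19 of 59 higher and 1 lower. CYC1 and UQCRC1, both of complex III, went from 1682 to 6221 and from 775 to 2114, while NDUFV2 of complex I was lower, from 14754 to 8722.

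The enzymes that write, read or erase H3K36 and H3K27 methylation had no common direction (median -0.05, 7 of 33 lower and 3 higher). The close relatives of NSD2 differed little between the arrays, with NSD1 at 98.1 and 85.0 and NSD3 at 1864 and 1977, and SETD2, which trimethylates H3K36, read 1599 and 1357. EZH2, the H3K27 methyltransferase, read 6004 and 5741. JARID2, which recruits its complex, went from 1709 to 380, but its 3 probe sets ran from -2.17 to -0.24. The DNA methyltransferase DNMT3B went from 1958 to 740, and MORF4L1, a reader of H3K36 methylation, from 12872 to 29991 with 3 probe sets between 1.22 and 1.92.

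Cell death genes were mixed (median -0.19, 10 of 27 lower and 4 higher). BCL2L11, the death activator BIM, was lower on all 7 probe sets (4925 to 1843 on the brightest). The survival genes BCL2L1 and BCL2 also read lower, from 1689 to 839 and from 1874 to 1139. BID, another activator, was higher (1372 to 2986). Targets of p53 were divided as well (median 0.14, 5 of 24 lower and 6 higher): CDKN1A, the p21 inhibitor of the cell cycle, went from 470 to 786, and GADD45A from 2876 to 1259. MDM2, the ligase of p53, had 6 probe sets from -0.88 to 2.45 and is given no direction.

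The list of RAS-MAPK feedback and AP-1 genes had no common direction (median 0.12, 7 of 27 lower and 7 higher). The AP-1 subunits FOS (969 to 393) and JUN (7346 to 4157, all 4 probe sets lower) were lower, as was the kinase MAPK3 (584 to 291). The feedback inhibitors SPRED1 and DUSP6 (144 to 373, 3 probe sets between 1.22 and 2.15) were higher, as were the ETS factor ETV5 (55.5 to 193) and the kinase MAP2K1 (860 to 2843). The remaining lists, all with medians between -0.18 and 0.21, were those of KLF, ETS and RUNX factors, NF-kB targets, fatty acid and cholesterol synthesis, tRNA synthetases, ubiquitin-conjugating enzymes, histones, other histone modifiers, uracil repair, SR proteins and hnRNPs, autophagy and lysosome genes, and NRF2 targets. Among their members RUNX2 went from 5044 to 1955, the lysosomal membrane protein SCARB2 from 21494 to 8869, the splicing scaffold SRRM2 from 3577 to 1238, malic enzyme ME1 from 1213 to 2870 and the acetyltransferase KAT2B from 1065 to 2673.

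**Figure D5:**
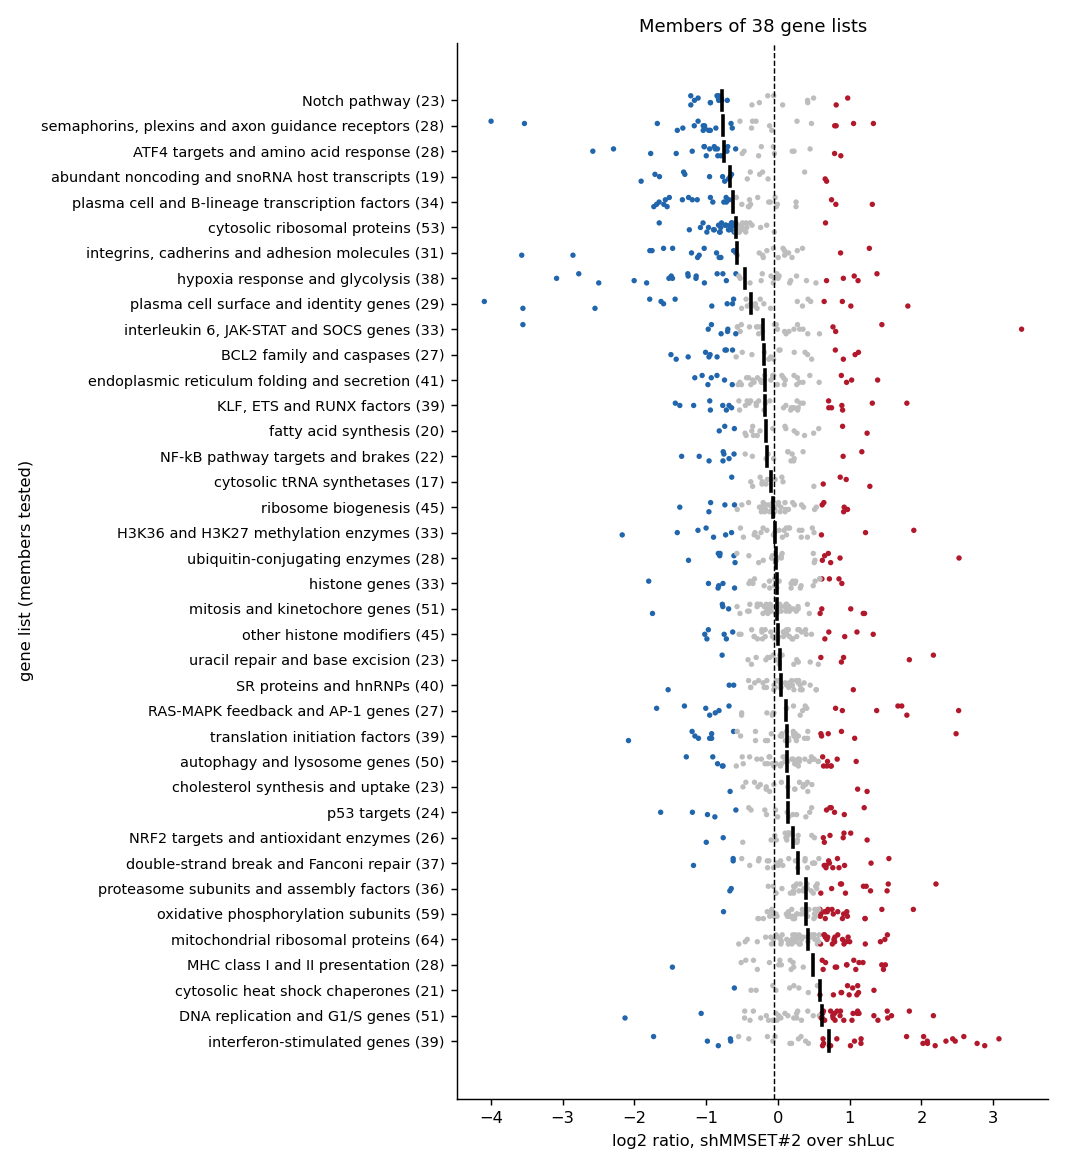
Log2 ratios (horizontal) of the tested members of 38 gene lists (vertical, number tested in brackets); blue and red points are members at least 1.5-fold lower and higher, black bars are list medians and the dashed line is the median of all tested genes, -0.05. List medians run from -0.78 for the Notch pathway to 0.72 for interferon-stimulated genes, and most lists hold members on both sides.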

How the data were processed

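The values are MAS5 intensities, linear signals per probe set that the authors deposited, made with MAS5 per the submitters' processing notes; the design text adds GeneSpring. No version or setting is given in the sources used here. That text also names the smaller HG-U133 A array, whereas the table holds HG-U133 Plus 2.0 identifiers, and probe sets were named on that basis: 1801 had several symbols and 11721 were unnamed here. Symbols of 41037 probe sets were updated by Entrez identifier through RefSeq (GRCh38.p14). The deposited scaling was kept. A probe set counted as measured where above its array's median on at least 1 of the 2 arrays, and a gene was its measured probe set with the highest mean signal, the floor being at the 40th percentile. The number of arrays limits the precision.

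Named were NSD2; the 15 lowest and 15 highest genes with agreeing probe sets, ranked by the smallest ratio; the 10 lowest and 10 highest with 1 probe set; up to 3 members a side of each list; and the 8 genes whose probe sets were farthest apart. Placeholder names were skipped. This named 232 genes, not all of which are printed. Other list members were added for their known roles after their values were seen. Members, the 38 lists and 7 marker lists were chosen with earlier results of these data known, and 33 genes are in more than 1 list. Promoter windows are RefSeq's, on the gene's strand, and the 3 windows printed per motif were taken among members with a match. Alternatives were 2 other scalings, floors, filters, probe set choices, thresholds and a looser rule of agreement. The steps were tested on simulated data. Tools were Python 3.11.15 with pandas 2.3.3, numpy 2.4.6, matplotlib 3.10.9 and scipy 1.17.1.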

Additional observations from a re-analysis of the deposited data

How the results depend on the processing

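No paired analysis was possible because each group is 1 array. The counts of genes at least 2-fold lower, at least 2-fold higher, lower with agreeing probe sets and higher with agreeing probe sets were 1374, 719, 327 and 149. With both arrays scaled to the same median they were 721, 1607, 151 and 402; at 1.5-fold they were 2945, 2108, 564 and 340; at 3-fold they were 338, 162, 111 and 39. A floor at the 60th percentile gave 705 lower, 164 lower with agreement and 99 higher with agreement. A filter at the 75th percentile gave 554 lower, 463 higher and 152 lower with agreement, and no filter gave 217 lower with agreement. Once _x_at and _s_at probe sets were left out, 186 lower and 80 higher genes had agreement, the NSD2 median was -2.45, which rests on 1 probe set, and TFB1M turned to -1.01. Scaling to the same median turned the medians of plasma cell surface genes to 0.00097 and of adhesion molecules to 0.057. The causes of these changes were not tested, beyond fewer genes or probe sets being read. Of the other 14 lists with a direction, none changed sign under the settings run, while 17 of all 38 did, the rest of them lists given no direction. Keeping the sign is a weaker rule than staying 1.25-fold from 0, which some of the 14 did not do in every setting. Their medians nearest 0 were -0.12 for cytosolic ribosomal proteins, -0.14 for hypoxia genes and -0.14 for axon guidance genes. For plasma cell and B-lineage transcription factors and for Notch genes they were -0.31 and -0.31. For antigen presentation and oxidative phosphorylation genes they were 0.29 and 0.27. Scaling to the same median also moved counts of members past 1.5-fold: lower plasma cell surface genes from 11 to 6, adhesion molecules from 15 to 9 and noncoding transcripts from 11 to 6, and higher mitochondrial ribosomal proteins from 22 to 39, oxidative phosphorylation subunits from 19 to 34 and proteasome genes from 11 to 23. The same scaling moved all tested genes past 1.5-fold from 23.1% to 13.9% lower and from 16.5% to 31.2% higher, and the part of this shift in the member counts was not tested. Of 227 named genes past 1.5-fold, TFB1M was the 1 that reversed, and it was named because its probe sets were far apart. Genes named for other reasons had 1 probe set or several of like sign, so averaging or dropping probe sets could hardly reverse them. Scaling to the same median moved the all-gene median from -0.05 to 0.27, which is less than 1.5-fold. The rarity of reversals was thus largely set by how genes were chosen. Of 1988 values over the settings, 79 moved without reversing. In the dimmest decile, 63.1% of ratios are bounds. No other line, hairpin or time enters the comparison, and effects of the hairpin other than on NSD2 cannot be told apart from those of NSD2.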

Other observations

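Probe sets without a gene name here lay lower than named ones. Of 11721, 4520 (38.6%) were measured; their median log2 ratio was -0.38, with 821 (18.2%) at least 2-fold lower and 180 (3.98%) higher. Of the 41091 probe sets with 1 symbol, 24279 (59.1%) were measured, with a median of -0.06, 10.5% of them lower and 6.01% higher. Probe sets with several symbols lay between, with 1174 measured, a median of -0.11, 143 lower and 57 higher. These groups were not matched on signal, and dim genes were more often lower, so the part of signal in the difference was not tested.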
